A study of Oryza sativa with 14 samples.

Results

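The LHCB genes of rice (Oryza sativa) encode the chlorophyll a/b-binding proteins that form the outer antenna of photosystem II. They were chosen by gene family as a list of 8 locus IDs out of 55986 genes in the count table, with earlier results of these data known. Of these, 3 are copies of LHCB1: LOC_Os01g41710 (CAB2R) and LOC_Os01g52240 on chromosome 1, and LOC_Os09g17740 (CAB1R) on chromosome 9. The other 5 are LHCB2 (LOC_Os03g39610), LHCB3 (LOC_Os07g37550), LHCB4 (LOC_Os07g37240), LHCB5 (LOC_Os11g13890) and LHCB6 (LOC_Os04g38410). The family names were assigned from general knowledge of rice genes; only CAB2R and CAB1R were found in a name table, as synonyms. All 8 passed the filter on low counts, which left 28823 genes to test.

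RNA was sequenced from leaves of seedlings of the cultivar ZH11 at the 4-leaf stage, in wild type (WT) and in the transgenic htg3 lines cr12 and cr2, either heated at 42 °C for 0.5 h or left untreated. There were 6 groups: heated cr12 (2 libraries), heated cr2 (2), heated WT (3), untreated cr12 (2), untreated cr2 (2) and untreated WT (3), 14 libraries in all. The labels name no lesion for either line and give no locus for HTG3, so the targeted gene was not checked here, and each line is 1 transgenic line of unstated origin. Nothing in the labels says that replicates came from separate plants, so p-values measure only the spread between these samples.

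In plants, LHCB1, LHCB2 and LHCB3 proteins assemble into the mobile and bound trimers of light-harvesting complex II (LHCII), the main store of chlorophyll b in the leaf. LHCB4 (CP29), LHCB5 (CP26) and LHCB6 (CP24) are monomers that sit between those trimers and the photosystem II core and pass on excitation energy. The genes lie in the nucleus, are transcribed in the light in photosynthetic cells, and are known for sensitivity to the state of the chloroplast.

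Each library held 92 M to 99.4 M estimated counts (M, mega). Low values peaked at multiples of 4: 9196 values were 4, 5690 were 8 and 3981 were 12, against 5346 at 5, 3404 at 9 and 2300 at 13. If 1 fragment was worth about 4 counts, an inference from these peaks, a library held 23 M to 24.9 M fragments. The 8 LHCB genes together took 1.56% to 5.42% of the counts of a library, so these markers of green tissue were abundant in all 14. At least 95792 counts stood behind each value of the 7 genes other than LOC_Os01g52240, so counting error was small beside the spread between replicates. Levels are given as CPM (counts per M counts of a library) on library sizes scaled by TMM. CPM does not allow for gene length, so levels are compared between libraries and not between genes. In bulk leaf RNA, fewer green cells and less LHCB RNA per cell cannot be told apart.

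The untreated cr2 libraries differed most from each other. Replicate 2 held 1.5 to 1.92 times the level of replicate 1 in all 7 genes that had counts in every library. In the other groups the highest library held 1.01 to 1.12 times the level of the lowest (heated cr2), 1.14 to 1.37 times (heated cr12), 1.35 to 1.46 times (heated WT), 1.17 to 1.41 times (untreated cr12) and 1.07 to 1.22 times (untreated WT). The counts of members called that rest on untreated cr2 are therefore also given without replicate 2.

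After heat the transcripts of 3 of the 8 LHCB genes, LHCB2, LHCB3 and LHCB5, fell in the htg3 lines and in WT, and no LHCB gene rose. The remaining members, among them the CAB2R and CAB1R copies of LHCB1, LHCB4 and LHCB6, did not pass the test in either. A gene was called at a Benjamini-Hochberg adjusted p under 0.05 over all tested genes (edgeR, quasi-likelihood test). Across all tested genes 28.5% were called lower after heat in htg3 and 26.3% in WT, so 3 of 8 is not far from the share of all genes. The median log2 change was -0.63 for the 8 LHCB genes and -0.03 for all tested genes in htg3, and -0.38 for LHCB and -0.05 for all tested genes in WT. Heated libraries lay wholly below untreated ones in 5 of 8 members in WT, 5 in cr12 and 4 in cr2. Across all tested genes this held for 32.2% in WT, 38.1% in cr12 and 35.3% in cr2, so separate ranges were common.

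**Figure D1:**
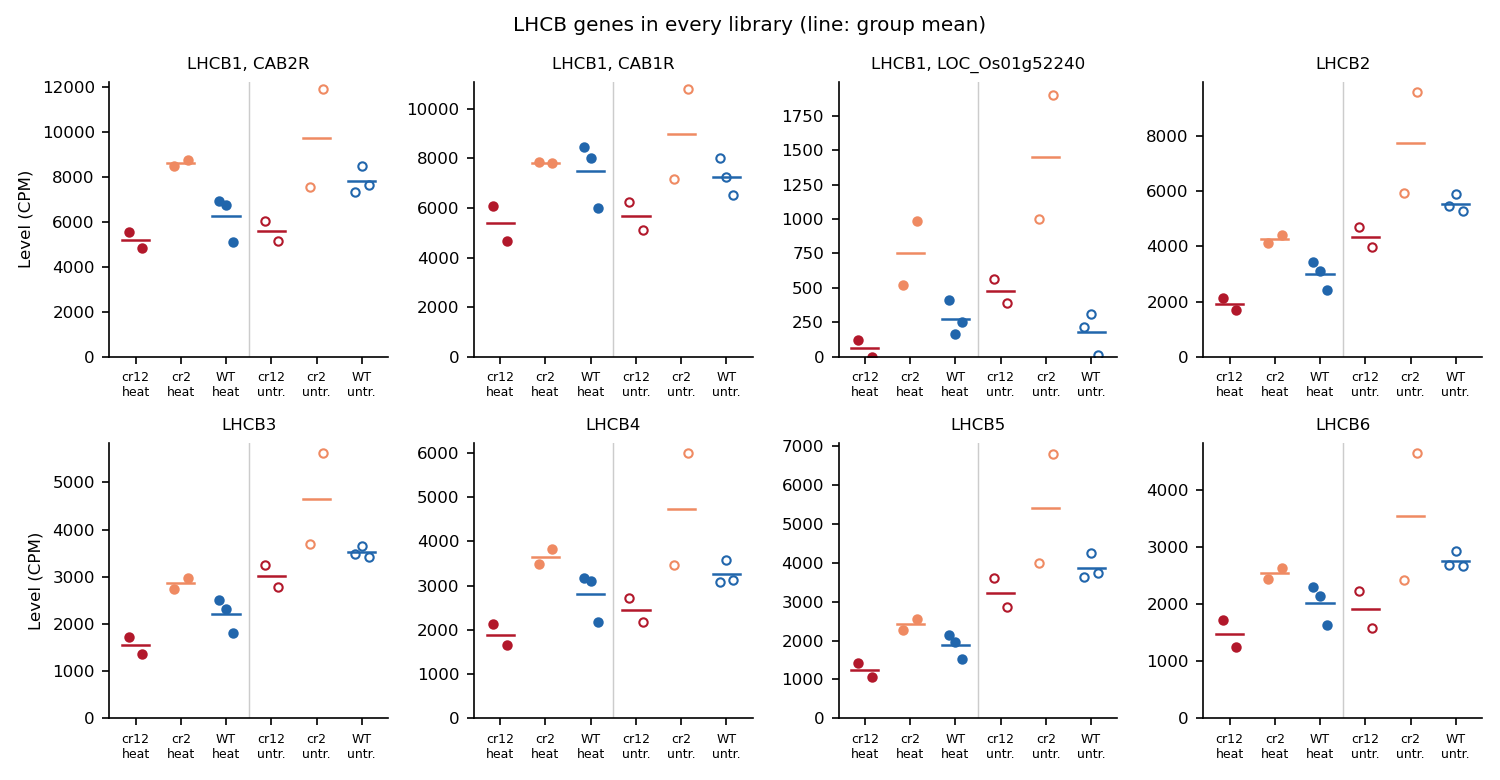
Level of each LHCB gene (CPM, linear axis starting at 0) in every library, with heated libraries as filled and untreated libraries as open circles, and a line at each group's mean. Heated libraries lie below the untreated ones of the same genotype for LHCB2, LHCB3 and LHCB5, and cr12 lies below cr2 in every panel at both treatments.

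LHCB5 encodes CP26, a monomeric antenna protein at the edge of the photosystem II core, and showed the largest fall of the 8 genes among those called. Its levels after heat were 1434 and 1073 CPM in cr12, 2277 and 2554 CPM in cr2, and 2131, 1960 and 1529 CPM in WT. In untreated leaves they were 3599 and 2867 CPM in cr12, 4004 and 6792 CPM in cr2, and 3636, 4248 and 3744 CPM in WT. Every heated library lay below every untreated library, whatever its genotype. The log2 change was -1.26 ± 0.18 in htg3 (SE, edgeR adjusted p = 6.5e-05) and -1.05 ± 0.20 in WT (adjusted p = 0.00096). Ordered by mean, the groups ran from heated cr12 (1253 ± 256 CPM, SD, n = 2) through heated WT (1873 ± 310, n = 3), heated cr2 (2416 ± 196, n = 2), untreated cr12 (3233 ± 518, n = 2) and untreated WT (3876 ± 327, n = 3) to untreated cr2 (5398 ± 1971, n = 2). Of these neighbours, untreated WT and untreated cr2 overlapped, and each other neighbouring pair had separate ranges.

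LHCB2 encodes a subunit of the LHCII trimers that, in Arabidopsis, is phosphorylated when the antenna moves between photosystems. After heat it stood at 2143 and 1691 CPM in cr12, 4135 and 4423 CPM in cr2, and 3423, 3124 and 2434 CPM in WT. In untreated leaves it stood at 4722 and 3987 CPM in cr12, 5952 and 9587 CPM in cr2, and 5472, 5918 and 5278 CPM in WT. Within each genotype heated and untreated libraries did not overlap, whereas the heated cr2 libraries (mean 4279 ± 203 CPM, SD, n = 2) lay within the range of untreated cr12 (4354 ± 520 CPM, n = 2). The log2 change was -1.02 ± 0.16 in htg3 (edgeR adjusted p = 0.00017) and -0.89 ± 0.19 in WT (adjusted p = 0.0016).

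LHCB3 encodes a further subunit of the LHCII trimers. It measured 1721 and 1371 CPM in heated cr12, 2734 and 2984 CPM in heated cr2, and 2513, 2317 and 1815 CPM in heated WT. Untreated leaves gave 3252 and 2786 CPM in cr12, 3688 and 5622 CPM in cr2, and 3484, 3662 and 3419 CPM in WT. As for LHCB2, heated libraries lay below untreated ones within each genotype, and only heated cr2 and untreated cr12 overlapped among neighbouring groups. The log2 change was -0.83 ± 0.15 in htg3 (edgeR adjusted p = 0.00045) and -0.67 ± 0.17 in WT (adjusted p = 0.0062).

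The LHCB1 copies, which encode the most abundant subunit of LHCII in leaves, did not pass the test after heat. CAB2R stood at 5542 and 4844 CPM in heated cr12, 8480 and 8746 CPM in heated cr2, and 6925, 6746 and 5114 CPM in heated WT. Untreated leaves had 6045 and 5158 CPM in cr12, 7547 and 11885 CPM in cr2, and 7347, 8489 and 7626 CPM in WT. Heated WT lay below untreated WT without overlap, as did 32.2% of all tested genes, but both lines overlapped. The log2 change was -0.14 ± 0.15 in htg3 (edgeR adjusted p = 0.46) and -0.32 ± 0.18 in WT (adjusted p = 0.15). CAB1R measured 6074 and 4684 CPM in heated cr12, 7851 and 7812 CPM in heated cr2, and 8446, 8025 and 5980 CPM in heated WT, against 6248 and 5102 CPM in untreated cr12, 7179 and 10792 CPM in untreated cr2, and 7997, 7235 and 6535 CPM in untreated WT. The treatments overlapped in all 3 genotypes. Its log2 change was -0.14 (95% interval -0.49 to 0.22) in htg3 and 0.04 (-0.36 to 0.45) in WT. For CAB2R the intervals were -0.48 to 0.19 in htg3 and -0.71 to 0.07 in WT, so neither copy is shown to be unaffected by heat.

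The second copy on chromosome 1, LOC_Os01g52240, was the least stable member. It had 122 and 0 CPM in heated cr12, 524 and 988 CPM in heated cr2, and 414, 162 and 250 CPM in heated WT. Untreated leaves had 562 and 390 CPM in cr12, 998 and 1903 CPM in cr2, and 219, 311 and 12.1 CPM in WT. Untreated WT alone spanned 25.7 times between its lowest and highest library, and the edgeR log2 changes with heat, -1.95 ± 1.2 in htg3 and 0.61 ± 1.35 in WT, had large errors (adjusted p = 0.19 and 0.74). The copy held 0% to 7.74% of the summed LHCB1 counts of a library. LHCB1 copies are near-identical in sequence, so reads may have been divided between them in ways that the deposited counts do not record. The sum over the 3 copies does not depend on that division: it averaged 10633 ± 1563 CPM in heated cr12, 17200 ± 488 CPM in heated cr2 and 14021 ± 2357 CPM in heated WT, against 11753 ± 1560 CPM in untreated cr12, 20152 ± 6262 CPM in untreated cr2 and 15257 ± 968 CPM in untreated WT. The difference between group means of the log2 CPM of this sum, heated minus untreated, was -0.15 in cr12, -0.19 in cr2 and -0.13 in WT. For all 8 members summed it was -0.52, -0.45 and -0.41 in the same genotypes.

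The remaining monomers, LHCB4 and LHCB6, were lower on average after heat but did not pass the test. LHCB4 encodes CP29, which links the core to the bound trimer. It stood at 2140 and 1648 CPM in heated cr12, 3485 and 3821 CPM in heated cr2, and 3167, 3099 and 2171 CPM in heated WT, against 2733 and 2179 CPM in untreated cr12, 3476 and 6010 CPM in untreated cr2, and 3089, 3577 and 3127 CPM in untreated WT. Its log2 change was -0.38 ± 0.18 in htg3 (edgeR adjusted p = 0.099) and -0.21 ± 0.21 in WT (adjusted p = 0.42). Heated and untreated libraries of LHCB4 were separate in cr12 and overlapped in cr2 and in WT. LHCB6 encodes CP24, an antenna protein of land plants that joins the trimers to CP29. It measured 1713 and 1253 CPM in heated cr12, 2441 and 2634 CPM in heated cr2, and 2294, 2141 and 1640 CPM in heated WT, against 2236 and 1590 CPM in untreated cr12, 2417 and 4651 CPM in untreated cr2, and 2679, 2936 and 2674 CPM in untreated WT. The log2 change was -0.42 ± 0.20 in htg3 (edgeR adjusted p = 0.09) and -0.45 ± 0.23 in WT (adjusted p = 0.12), with overlapping ranges in both lines and separate ranges in WT. Heated libraries lay wholly below untreated ones in 38.1% of all tested genes in cr12 and 32.2% in WT.

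Line by line, LHCB2, LHCB3 and LHCB5 fell after heat in cr12 and in cr2, and no other member passed the test in either line. In cr12, where 23.9% of all tested genes were called lower, the log2 changes were -1.18 ± 0.23 for LHCB2 (edgeR adjusted p = 0.0012), -0.97 ± 0.21 for LHCB3 (0.0026) and -1.37 ± 0.25 for LHCB5 (0.00078). In cr2, with 20.9% of genes called lower, they were -0.86 ± 0.23 for LHCB2 (adjusted p = 0.0095), -0.70 ± 0.21 for LHCB3 (0.018) and -1.16 ± 0.25 for LHCB5 (0.0027). These comparisons use the same libraries as the htg3 mean and add no independent evidence to it. The cr2 calls of LHCB2 and LHCB3 rested on untreated replicate 2: without it the log2 changes were -0.51 (adjusted p = 0.12) and -0.40 (adjusted p = 0.20). The number of members called for heat in cr2 was likewise 1 without heated cr2 replicate 1, and 5 without untreated cr2 replicate 1, which also gave 5 for htg3. For htg3 the count remained 3 without untreated cr2 replicate 2, with LHCB2 at -0.83, LHCB3 at -0.66 and LHCB5 at -1.04. LHCB5 kept its call in cr2 under all 12 alternatives run for that comparison, and LHCB2, LHCB3 and LHCB5 were called in htg3 under all 16, in cr12 under all 12 and in WT under all 14.

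**Figure D2:**
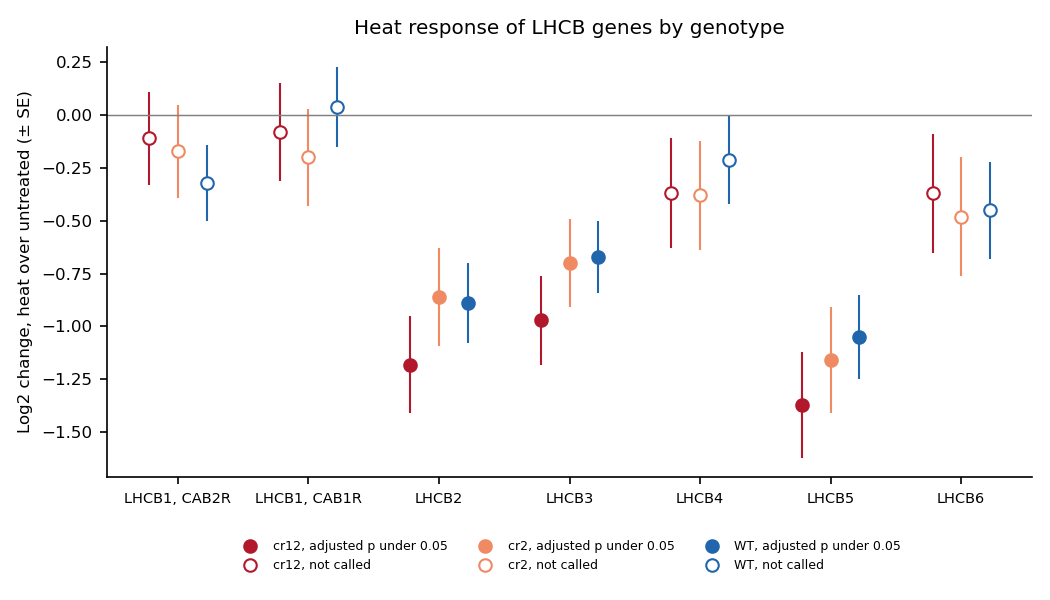
Log2 change after heat (heated over untreated, vertical axis, ± SE from edgeR) of 7 LHCB genes in cr12, cr2 and WT, with filled symbols for calls at an adjusted p under 0.05; LOC_Os01g52240 is left out because its SE exceeds 1. LHCB2, LHCB3 and LHCB5 are filled in all 3 genotypes, and the other genes are open and lie nearer to 0.

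Heat changed the proportions among the LHCB transcripts within a library, a measure in which library scaling cancels. The log2 ratio of 1 member to another was compared between 7 heated and 7 untreated libraries for all 21 pairs of the 7 members with counts in every library. The test was a two-sided exact permutation of heat labels within genotype (720 permutations, p-values adjusted over the 21 pairs; the smallest p they can give is 0.0028, or 0.0039 adjusted), and it was added after the values had been seen. After heat 18 of the 21 ratios differed, 13 of them without overlap between heated and untreated libraries, and both counts were the same without untreated cr2 replicate 2. The pairs share members and are not independent. They use the same libraries as the single-gene tests and are not separate evidence for those calls. All pairs without overlap except LHCB5 to LHCB3 set a called member (LHCB2, LHCB3 or LHCB5) against an uncalled one. No other gene pairs were measured, so the share of all pairs that would differ is not known. The counts are therefore not shown to be particular to LHCB. As single genes, a different measure, 56.1% of all tested genes were called by edgeR after heat in htg3 and 51.1% in WT, in either direction. Only the differences between treatments are read here, since the ratios themselves depend on gene length.

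LHCB5 fell relative to each of the other 6 members. Its log2 ratio to LHCB4, a monomer like itself, lay between -0.66 and -0.51 in heated libraries and between 0.18 and 0.40 in untreated ones. The difference was -0.87 (exact permutation, adjusted p = 0.0039), with -0.99 in cr12, -0.79 in cr2 and -0.83 in WT. Against CAB1R and CAB2R the differences were -1.11 and -0.99, against LHCB6 -0.77 and against LHCB3 -0.41, each with the same adjusted p and no overlap. Against LHCB2 the difference was -0.21 (adjusted p = 0.0039), where the ranges overlapped.

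Among the trimer genes LHCB2 and LHCB3 fell relative to CAB1R and CAB2R, the LHCB1 copies with counts in every library, each taken singly. The log2 ratio of LHCB2 to CAB1R lay between -1.50 and -0.82 in heated libraries and between -0.55 and -0.17 in untreated ones, a difference of -0.90, and that of LHCB3 to CAB1R differed by -0.70. Against CAB2R the differences were -0.78 for LHCB2 and -0.58 for LHCB3. Relative to LHCB4, LHCB2 differed by -0.66 and LHCB3 by -0.46. All these differences had an exact permutation adjusted p of 0.0039, without overlap. Within WT, LHCB3 differed by -0.35 against CAB2R and by -0.72 against CAB1R, so the size depended on the copy. Ratios to the summed LHCB1 copies were not tested. The 3 pairs that missed the threshold were CAB2R to CAB1R (-0.12, adjusted p = 0.12), LHCB4 to CAB2R (-0.12, 0.12) and LHCB6 to LHCB4 (-0.10, 0.068). The members called lower after heat thus included trimer genes (LHCB2, LHCB3) and a monomer gene (LHCB5), and so did the members that were not called.

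**Figure D3:**
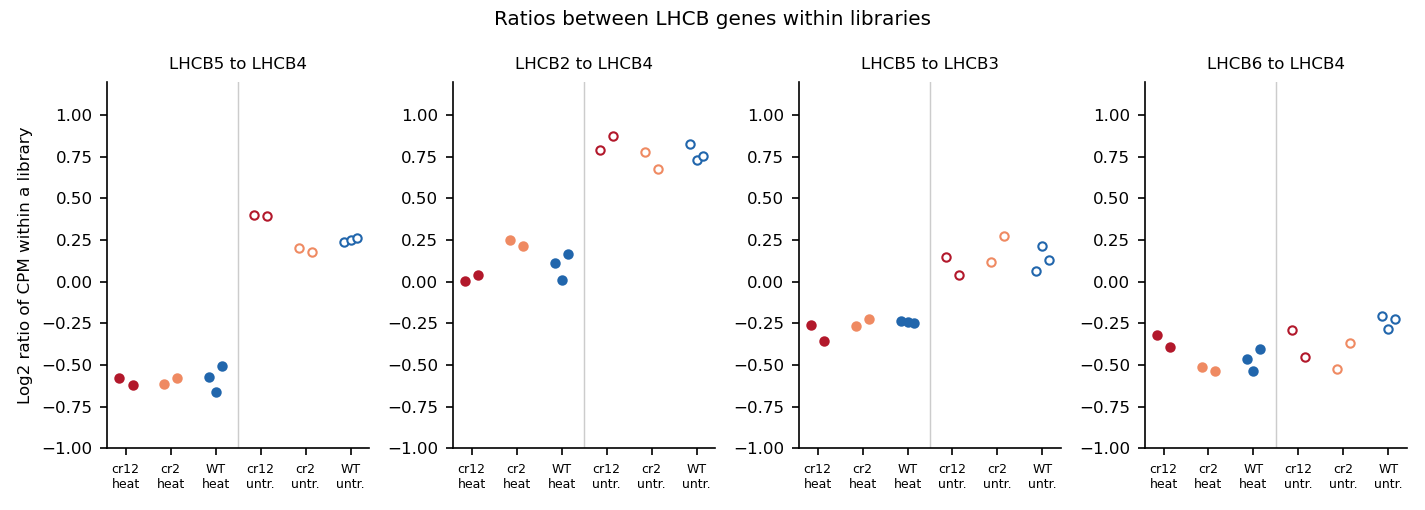
Log2 ratio of CPM between pairs of LHCB genes within each library (vertical axis, same scale in all panels), heated libraries filled and untreated open. LHCB5 to LHCB4, LHCB2 to LHCB4 and LHCB5 to LHCB3 separate the treatments in all 14 libraries, while LHCB6 to LHCB4 overlaps.

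The mean of the htg3 lines did not differ detectably from WT in any LHCB gene. After heat 0 of 8 members were called (edgeR, with 7.21% of all tested genes called in either direction), and in untreated leaves 0 of 8 (3.07% of all tested genes). No member had an unadjusted edgeR p under 0.05 in either, DESeq2 called 0 in both, and limma voom called 0 in both with 1 unadjusted p under 0.05 in untreated leaves and 0 after heat. For LHCB5 the log2 difference of htg3 from WT was -0.11 (95% interval -0.52 to 0.30) after heat and 0.11 (-0.30 to 0.52) untreated. For LHCB2 it was -0.06 (-0.44 to 0.31) after heat and 0.07 (-0.31 to 0.45) untreated. Leaving out LOC_Os01g52240, the values of the other 7 members lay between -0.21 and 0.11. Without untreated cr2 replicate 2 the untreated count was also 0. These averages pool 2 lines that differed from each other.

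The heat response of the LHCB genes was not shown to differ between htg3 and WT. The interaction was called for 0 of 8 members, beside 0.114% of all tested genes, with 0 unadjusted edgeR p-values under 0.05, and DESeq2 and voom also called 0 (voom with 1 unadjusted). Without untreated cr2 replicate 2 edgeR called 0 as well. It was -0.21 (95% interval -0.80 to 0.37) for LHCB5, -0.13 (-0.67 to 0.41) for LHCB2 and -0.17 (-0.66 to 0.33) for LHCB3. These intervals are as wide as the heat responses of some members, so they do not show that the genotypes responded alike.

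The lines differed from each other, with lower LHCB levels in cr12 than in cr2. After heat 3 of 8 members were called lower in cr12 (3.45% of all tested genes were). Both cr12 libraries lay below both cr2 libraries in 8 of 8 members and in 24.6% of all tested genes, and since the members move together across libraries the 8 are not separate observations. The called members were LHCB2 at -1.16 ± 0.23 (edgeR adjusted p = 0.014), LHCB3 at -0.89 ± 0.21 (0.033) and LHCB5 at -0.95 ± 0.25 (0.048). LHCB4 at -0.95 (0.056), CAB2R at -0.73 (0.078), LHCB6 at -0.77 (0.15), CAB1R at -0.54 (0.22) and LOC_Os01g52240 at -3.62 (0.31) did not pass. Without heated cr12 replicate 2, or without either heated cr2 library, edgeR called 0. In untreated leaves both cr12 libraries again lay below both cr2 libraries in 8 of 8 (23.9% of all tested genes), but edgeR called 0 of 8 (2.24% of all tested genes were called lower). With edgeR 7 had an unadjusted p under 0.05, as did 21.2% of all tested genes in either direction, at log2 differences between -0.62 and -0.95. DESeq2 called 7 (10.9% of all tested genes in either direction) and voom 0. The untreated difference leaned on cr2 replicate 2: without it no member reached an unadjusted p under 0.05, and without replicate 1 edgeR called 7.

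Averaged over both treatments, a comparison added after the values had been seen, 7 of 8 members were lower in cr12 than in cr2, against 6.17% of all tested genes. The log2 differences were -1 ± 0.16 for LHCB2 (edgeR adjusted p = 0.003), -0.95 ± 0.18 for LHCB4 (0.0072), -0.84 ± 0.18 for LHCB5 (0.011), -0.83 ± 0.20 for LHCB6 (0.021), -0.76 ± 0.15 for LHCB3 (0.0083), -0.76 ± 0.15 for CAB2R (0.0092) and -0.60 ± 0.16 for CAB1R (0.035). The summed LHCB level of cr12 was 20890 and 16564 CPM after heat, against 31928 and 33962 CPM in cr2. Untreated, it was 29397 and 24058 CPM in cr12, against 35261 and 57243 CPM in cr2. The called members included CAB2R, CAB1R, LHCB4 and LHCB6, which were not called after heat in either genotype. Without heated cr12 replicate 2 the count was 4 of 8, and without untreated cr2 replicate 2 it was 5 of 8, with CAB1R (-0.45, adjusted p = 0.16) and LHCB6 (-0.56, 0.091) no longer called. Without untreated cr12 replicate 2, untreated cr2 replicate 2 and heated WT replicate 2, the count was 1 of 8, while after heat alone it was then 5 of 8.

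Set against WT over both treatments, the log2 differences of the members were negative in cr12 and positive in cr2, but nearly all were uncalled. The members move together, so their shared sign is not a set of separate observations. In cr12 0 of 8 members were called (3.39% of all tested genes were called lower). With edgeR 7 had an unadjusted p under 0.05, at log2 differences between -0.37 and -0.50, as did 22.1% of all tested genes in either direction. DESeq2 called 4 (12% of all tested genes in either direction) and voom 1 (6.38%). In cr2 1 of 8 was called higher (8.77% of all tested genes), LHCB2 at 0.50 ± 0.15 (edgeR adjusted p = 0.036). In cr2, LHCB3 at 0.39 (0.072), CAB2R at 0.39 (0.079), LHCB4 at 0.46 (0.079) and LHCB5 at 0.42 (0.091) did not pass, and the count was 0 without untreated cr2 replicate 2, without either heated cr2 library, without any 1 of the untreated WT libraries, or without heated WT replicate 2 or 3. It was 6 without untreated cr2 replicate 1. In cr12 it was 2 without heated WT replicate 3 and 1 without heated cr12 replicate 1. These comparisons share the libraries of cr12, cr2 and WT with the comparison of the lines and are not independent of it. The heat responses of the lines were not shown to differ: 0 of 8 were called (0.00347% of all tested genes), 0 had an unadjusted edgeR p under 0.05, DESeq2 and voom called 0, and edgeR called 0 without untreated cr2 replicate 2. The values for LHCB5 and LHCB2 were -0.21 (95% interval -0.97 to 0.56) and -0.32 (-1.02 to 0.38), cr12 minus cr2.

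**Figure D4:**
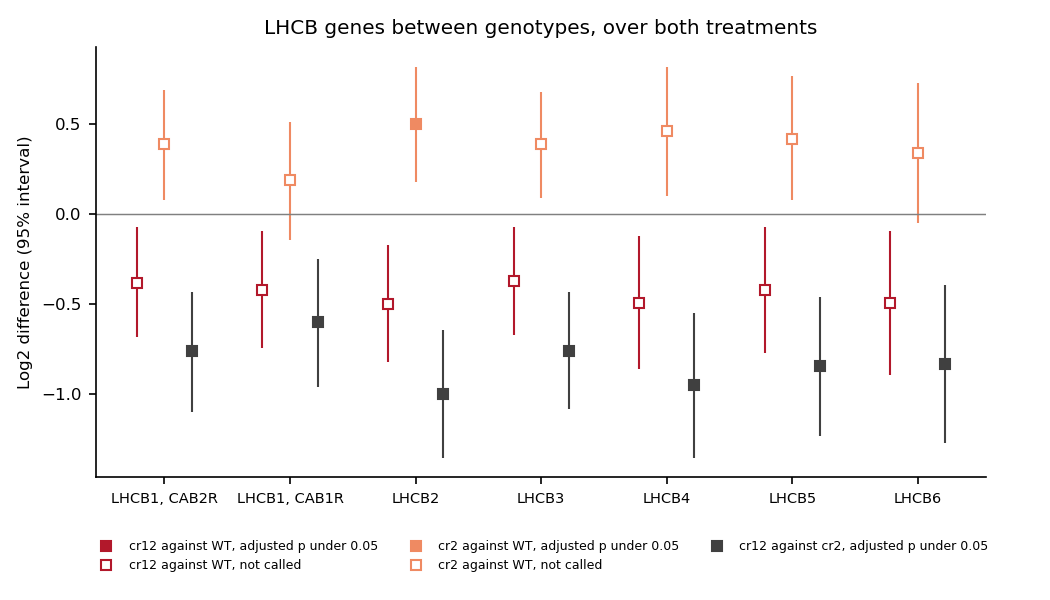
Log2 differences between genotypes over both treatments (vertical axis, points with 95% intervals from edgeR) for 7 LHCB genes: cr12 against WT, cr2 against WT, and cr12 against cr2, filled where the adjusted p is under 0.05; LOC_Os01g52240 is left out because of its wide interval. All cr12 against WT points lie below 0 and all cr2 against WT points above it, mostly uncalled, and the cr12 against cr2 points lie at -0.60 to -1 and are all filled.

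The members moved together across libraries, LOC_Os01g52240 least. The correlation of log2 CPM (pseudocount 0.5 CPM) of a member with the mean of the other 7 over the 14 libraries was 0.964 for LHCB6, 0.963 for LHCB4, 0.868 for LHCB5, 0.819 for CAB1R and 0.64 for LOC_Os01g52240. After the group means were taken out, the 7 members other than LOC_Os01g52240 still correlated at 0.923 to 0.996 with one another's mean, so a library high for 1 LHCB gene was high for the others. Outside the list, the genes most like the LHCB mean were LOC_Os08g44680 (PSAD, a stromal subunit of photosystem I) and LOC_Os07g47640, each at r = 0.988. These values describe libraries that share treatment, genotype and scaling.

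Some other genes of the photosynthetic apparatus also fell after heat, read beside 28.5% of all tested genes called lower in htg3 and 26.3% in WT. Of 6 genes of the photosystem I antenna (LHCA), 5 fell in htg3 and 3 in WT, with LHCA5 at -1.79 in htg3 and -1.44 in WT. Of 10 tested photosystem II subunit genes 7 fell in htg3 and 6 in WT, led by PSBR2 at -2.70 in htg3 and -3.05 in WT. Of 9 photosystem I subunit genes 4 fell in htg3 and 3 in WT, for example PSAK at -1.46 in htg3 and -1.23 in WT. The count in WT is not far from the share of all tested genes. The other 6 were not called in WT, among them PSAE at -0.02 and PSAL at -0.13. The medians of these lists after heat in WT were -0.57 for LHCA, -0.76 for photosystem II subunits and -0.35 for photosystem I subunits, beside -0.38 for LHCB. The names of these genes were likewise assigned from general knowledge and not checked against a file.

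Genes that act on the LHCB proteins or their transcription also fell after heat. Of 7 genes for antenna targeting, turnover and regulation, 5 fell in htg3 and 5 in WT. Of all tested genes, 28.5% were called lower in htg3 and 26.3% in WT, and 27.6% and 24.8% higher. GLK1, a transcription factor that in Arabidopsis activates LHCB genes, changed by -2.73 ± 0.22 in htg3 and -2.44 ± 0.25 in WT, and GLK2 by -1.36 in htg3 and -1.48 in WT. STN7, the kinase that in Arabidopsis phosphorylates LHCII, changed by -2.47 ± 0.11 in htg3 and -2.27 ± 0.13 in WT. Of 12 genes of chlorophyll synthesis 7 fell and 1 rose in htg3, and 6 fell and 1 rose in WT. The magnesium chelatase activator GUN4 changed by -2.38 in htg3 and -1.99 in WT, while PORA changed by -1.84 in htg3 and -2.85 in WT. PORB, which like PORA encodes a light-dependent reductase of the pathway, rose by 1.23 in htg3 and 1.48 in WT. CAO1, which makes chlorophyll b from chlorophyll a, changed by -1.68 in htg3 and -1.30 in WT.

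Relatives of the LHCB family, the early light-induced and one-helix protein genes, were mixed. Of 5 such genes 2 rose and 2 fell in htg3, and 3 rose and 2 fell in WT. Of all tested genes 27.6% were called higher and 28.5% lower in htg3, and 24.8% and 26.3% in WT. A count of 2 of 5 is therefore not far from the share of all genes. The early light-induced protein gene LOC_Os01g14410 rose by 2.17 ± 0.24 in htg3 and 2.75 ± 0.28 in WT, whereas the one-helix protein genes OHP1 (-1.99 and -1.91) and OHP2 (-1.63 and -1.64) fell in htg3 and in WT.

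**Figure D5:**
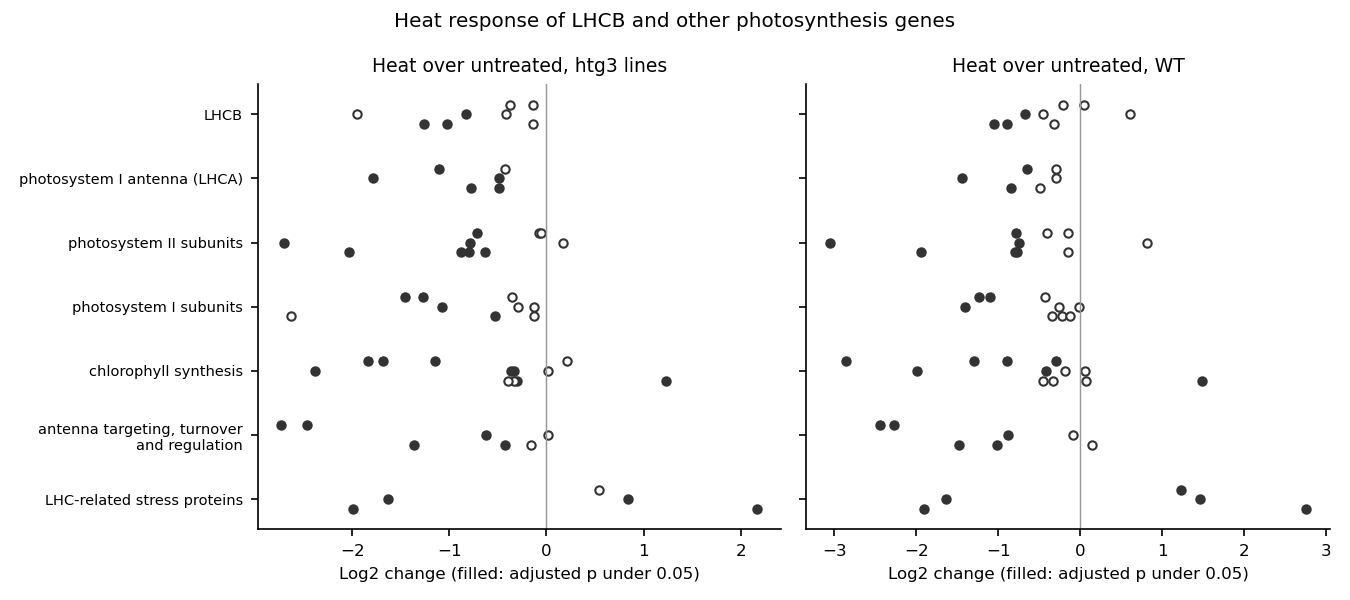
Log2 change after heat (horizontal axis, heated over untreated; scales differ between panels) of each tested gene in the LHCB list and 6 further lists, in the htg3 lines (left) and WT (right), filled where the edgeR adjusted p is under 0.05. Most filled points lie below 0, and the largest falls belong to lists other than LHCB.

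The difference between the lines was likewise seen in these lists. Over both treatments cr12 was lower than cr2 in 5 of 6 LHCA genes, 8 of 10 photosystem II subunits, 8 of 9 photosystem I subunits and 11 of 12 genes of chlorophyll synthesis, with list medians of -0.78, -0.73, -0.79 and -0.82 beside -0.84 for LHCB and 0.01 over all tested genes. After heat alone the counts were 3 of 6, 4 of 10, 6 of 9 and 9 of 12. Of all tested genes 6.17% were called lower over both treatments and 3.45% after heat. The medians of the other lists were nearer to that of all tested genes. Over both treatments 4 of 7 genes for antenna targeting, turnover and regulation were lower (median -0.49). Of the early light-induced and one-helix protein genes 2 of 5 were lower (median -0.63).

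Some markers of other cells were higher after heat. The summed level of 5 genes of dividing cells was 68.4 to 88.4 CPM in heated cr12, 66.3 to 103 CPM in heated cr2 and 24.4 to 44.5 CPM in heated WT, against 22.5 to 24.4 CPM in untreated cr12, 22.8 to 22.9 CPM in untreated cr2 and 15.8 to 18.1 CPM in untreated WT. Of these 5 genes 5 rose in htg3 and 4 in WT, beside 27.6% of all tested genes called higher in htg3 and 24.8% in WT. The summed level of 5 root markers was 24 to 28.5 CPM in heated cr12, 15.3 to 17 CPM in heated cr2 and 18.7 to 25.9 CPM in heated WT, against 10.4 to 11.8 CPM in untreated cr12, 8.39 to 9.98 CPM in untreated cr2 and 6.76 to 8.05 CPM in untreated WT. Of the 4 that could be tested 2 rose in htg3 (LSI1 and RCc3) and 1 in WT (LSI1), which for WT is near the share of all tested genes. The root silicon transporter gene LSI1 rose by 1.23 in htg3 and 1.87 in WT, whereas the iron transporter gene IRT1 was at -0.82 in htg3 and -0.67 in WT, neither called, AMT1;2 was not called, LSI2 was at 0 in all 14 libraries and the shoot meristem gene OSH1 was at 0 in every heated library. The part of these cells in the LHCB changes was not tested. Between the lines, the dividing-cell sums overlapped after heat and in untreated leaves, and the root sums were higher in cr12 than in cr2 in both treatments. After heat LSI1 was higher in cr12 than in cr2 (0.77, edgeR adjusted p = 0.047), and no other tested root gene was called. IRT1 was at 0.17 ± 0.57, RCc3 at -1.82 ± 1.63 and AMT1;2 at -6.05 ± 3.45. The median of the 4 tested root genes, -0.83, thus rests on values with large errors and shows no direction. The part of root cells in the LHCB difference between the lines was not tested.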

How the data were processed

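The authors deposited 1 table of estimated counts per gene (55986 rice genes with MSU locus IDs, 14 libraries). All values were whole, so rounding changed none. The submitters' processing notes name StringTie 1.3.3b, HISAT2 2.1.0, fastp 0.20.1 and DESeq2. Their roles, the genome build and strand settings are not given in the sources used here.

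From these counts, edgeR 4.0.16 (R 4.3.3; TMM, filterByExpr, quasi-likelihood F test) was fitted once to the 6 group means of all 14 libraries, each htg3 line weighted equally, with Benjamini-Hochberg adjustment over 28823 genes that hold 99.99% of counts. The SE is |log2 change|/√F, an approximation. DESeq2 1.42.0 and limma 3.58.1 (voom) were alternatives, beside other scaling, no filter, counts divided by 4, only the groups compared, and each library left out. The fit was tested on simulated data.

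The 8 members and the 10 lists (69 genes) were chosen with earlier results of these data known. All members are named in every comparison; of other lists, counts and up to 3 called genes with the largest heat change per comparison. The RefSeq name table (ASM3414082v1, 39387 genes) holds no MSU IDs; 2 members matched by synonym. The other names were assigned from general knowledge of rice genes and not checked against a file, so no sequence or coordinate is printed. At an inferred 4 counts per fragment a library held 23 M to 24.9 M fragments; a count of 0 allows up to 3 fragments, for counting error only.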

Additional observations from a re-analysis of the deposited data

Results flagged for a closer look

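The htg3 lines cr12 and cr2 differed from each other in LHCB genes, and the log2 differences called are given here, cr12 over cr2. After heat these were LHCB2 at -1.16, LHCB3 at -0.89 and LHCB5 at -0.95, by the edgeR test of the difference itself. Of all tested genes 3.45% were called lower there, and the calls changed when single libraries were left out. The comparison over both treatments was added after the values had been seen, with 6.17% of all tested genes called lower. Its called differences were LHCB2 at -1, LHCB4 at -0.95, LHCB5 at -0.84, LHCB6 at -0.83, CAB2R at -0.76, LHCB3 at -0.76 and CAB1R at -0.60. The members move together across libraries, so these are not separate observations.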

How the results depend on the processing

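LHCB2, LHCB3 and LHCB5 kept their fall after heat in htg3, cr12 and WT under every alternative. The number of members called changed as follows. With only the groups compared it was 1 for heat in cr2 (3 as reported), 1 for cr12 against cr2 after heat (3), and over both treatments 2 for cr2 against WT (1). With DESeq2 it was 7 for cr12 against cr2 untreated (0), 5 after heat (3), and over both treatments 4 for cr12 against WT (0) and 5 for cr2 against WT (1). In the same order, DESeq2 called 10.9%, 10.1%, 12% and 23.3% of all tested genes in either direction. The edgeR shares were 3.8%, 5.62%, 6.24% and 16.6%, so DESeq2 called more genes in general. With voom the number of members called was 1 for cr12 against WT (0), and with no filter on low counts 3 for cr12 against cr2 untreated (0). Without untreated cr12 and cr2 replicate 2 and heated WT replicate 2, chosen with earlier results known, it was 1 for heat in cr2, 5 for cr12 against cr2 after heat, 1 over both treatments, and 0 for cr2 against WT.

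Leaving out 1 library gave 3 to 5 calls for heat in htg3, 1 to 5 for heat in cr2, 0 to 1 for htg3 against WT after heat, and for cr12 against cr2 0 to 7 untreated, 0 to 2 after heat and 4 to 8 over both treatments. For cr12 against WT it gave 0 to 2, and for cr2 against WT 0 to 6. The cause was not tested. With 1 library left out, heat in cr2 ran from -0.71 to 0.04 for LHCB4 and from -0.86 to 0.04 for LHCB6, positive without untreated cr2 replicate 2, and it was 0.04 for each without the 3 libraries together. LOC_Os01g52240 in htg3 against WT after heat (-0.36) ran from -8.14 to 0.13, positive without heated WT replicate 1 (0.05) and without heated cr12 replicate 2 (0.13). Other scalings shifted the median of all genes by little and left each heat call in htg3 and WT. Groups of 2 libraries limit precision more than depth does. A single library left in a group was assumed to vary like the other groups. No paired analysis was possible because the labels carry no replicate numbers that the groups share.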
